A study of Homo sapiens with 3 samples.

Results

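The genes described here are 44 interferon-stimulated genes, chosen by symbol from general knowledge of the interferon response. Earlier results of these data were known when this choice was made. The 44 genes were found in all 3 counts tables among 43913 gene symbols. They were followed in single cells of the multiple myeloma line MM.1S and of the human bone marrow stromal line HS-5, each grown in monoculture or for 4 h in coculture with the other line. Transcripts were counted by Drop-seq, which captures single cells with barcoded beads in droplets and tags each RNA molecule with a unique molecular identifier (UMI). The experiment had 1 library for the MM.1S monoculture, 1 for the HS-5 monoculture and 1 for the coculture, and no agent was added to any of them. Each line derives from 1 donor, and HS-5 cells are immortalised. Because each condition was 1 library, no difference between conditions was tested and no p-value is given.

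Interferons bind receptors that signal through JAK kinases to STAT proteins. Type I and type III interferons act mainly through a promoter element called the interferon-stimulated response element (ISRE), whereas interferon gamma acts through the gamma-activated sequence (GAS) and raises IRF1, which also binds ISRE-like elements. The proteins made from such genes block virus entry, sense foreign nucleic acids, degrade or mask RNA and conjugate the ubiquitin-like protein ISG15, and many are present at a basal level in unstimulated cells.

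The promoters of 4 members are shown first, chosen after their values were seen because each had a coculture ratio above 2-fold in HS-5 (IFIT1, IFIT3 and ISG20) or in MM.1S (GBP1) and holds an ISRE match. RefSeq promoters (build GRCh38.p14, 250 bases before to 50 bases after the start site) were found for 36 of the 44 members, DDX58 under its current symbol RIGI. An ISRE, searched on both strands as GAAA, any pair of bases and GAAA again, was present in 24 of the 36 (66.7%) and in 3.57% of all 35116 promoters. A GAS, searched as TTC, any 3 bases and GAA, was present in 9 members (25%) and in 7.66% of all promoters. A palindrome such as the GAS reads alike on both strands, and overlapping ISRE matches were counted separately. The 200 bases before the start site are printed in the direction of the gene, with ISRE matches in capitals. For IFIT1 they lie at chr10:89392423-89392622 on the plus strand, for IFIT3 at chr10:89327797-89327996 on the plus strand, for ISG20 at chr15:88638816-88639015 on the plus strand and for GBP1 at chr1:89065209-89065408 on the minus strand.
IFIT1: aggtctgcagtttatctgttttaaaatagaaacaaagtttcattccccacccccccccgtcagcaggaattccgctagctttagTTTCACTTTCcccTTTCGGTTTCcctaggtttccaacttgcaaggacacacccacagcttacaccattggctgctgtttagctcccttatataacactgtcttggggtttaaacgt
IFIT3: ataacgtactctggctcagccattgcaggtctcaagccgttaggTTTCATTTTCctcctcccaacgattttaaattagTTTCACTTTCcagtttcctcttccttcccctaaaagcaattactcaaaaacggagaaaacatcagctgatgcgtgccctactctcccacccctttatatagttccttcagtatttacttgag
ISG20: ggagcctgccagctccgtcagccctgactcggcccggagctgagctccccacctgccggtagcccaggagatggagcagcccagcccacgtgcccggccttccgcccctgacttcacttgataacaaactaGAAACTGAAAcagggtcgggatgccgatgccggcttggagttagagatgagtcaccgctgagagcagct
GBP1: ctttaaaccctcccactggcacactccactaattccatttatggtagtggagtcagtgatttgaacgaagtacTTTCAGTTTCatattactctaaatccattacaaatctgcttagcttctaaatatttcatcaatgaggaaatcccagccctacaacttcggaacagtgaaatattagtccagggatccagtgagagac
IFIT1 and IFIT3 each carried a pair of ISRE matches, starting at bases -116 and -103 of IFIT1 and at -156 and -122 of IFIT3 relative to the start site, and ISG20 (-69) and GBP1 (-127) each carried 1. A match describes these letters only and was not tested as a binding site.

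The MM.1S library held 3994 barcodes, the HS-5 library 3865 and the coculture 3963, with medians of 2183, 949 and 789 UMIs per barcode. Between 39 and 76 barcodes were shared by each pair of libraries. Coculture cells were assigned to a line by 82 genes specific to MM.1S and 230 specific to HS-5 (at least 50-fold apart and at least 50 CPM, counts per 1000000 UMIs, in their own monoculture), with all members kept out of the rule. IFITM3 was the 1 member that met it, while GBP1 (39.1-fold higher in HS-5) and MX1 (31.9-fold higher in MM.1S) did not reach 50-fold. This gave 3947 and 1647 MM.1S cells from monoculture and coculture and 3732 and 2108 HS-5 cells, and 101 cells with mixed genes were left out. The median depth fell from 2201 to 668 UMIs per cell in MM.1S, whereas it was 972 and 957 in HS-5, so depth differs between the MM.1S populations far more than between the HS-5 populations. The share of mitochondrial UMIs was 6.82% and 4.05% in MM.1S and 2.79% and 2.23% in HS-5. Free RNA from HS-5 was estimated at 1.72% of the UMIs in MM.1S coculture droplets and free RNA from MM.1S at 0.798% in HS-5 coculture droplets. Both estimates rest on the same line-specific genes that assigned the cells, so the assignment itself limits them. Their source was the other line's coculture cells, not empty droplets. The 10 MM.1S markers summed to 10104 and 6883 CPM in MM.1S monoculture and coculture cells against 208 and 225 CPM in HS-5 cells, and the 10 HS-5 markers to 1509 and 2551 CPM in MM.1S against 2736 and 3029 CPM in HS-5. SDC1, the plasma cell surface protein CD138, went against its label in the monocultures, with 38.1 CPM in MM.1S and 135 in HS-5, the HS-5 markers FN1 (810.3 CPM in MM.1S and 252 in HS-5) and CAV1 (457 and 356 CPM) were higher in MM.1S, and CD79A was at or near 0 in all populations. FN1 made up most of the HS-5 marker sum in MM.1S coculture cells, with 2221 of the 2551 CPM. There CAV1 had 129 CPM, COL1A1 8.27, COL1A2 3.76, SPARC 5.26 and CCN2 1.5.

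In monoculture the lines shared some members and differed in others. At 10 CPM or more, 31 members were present in MM.1S and 26 in HS-5, 19 of them in both, 12 only in MM.1S and 7 only in HS-5. Of the 38 members at this level in at least 1 of the lines, 50% were thus in both (against 63% of all 9871 such genes), 31.6% only in MM.1S (against 10.8%) and 18.4% only in HS-5 (against 26.2%). OAS3, HERC6, USP18, CMPK2, RSAD2 and TRIM22 were below 10 CPM in both. Of the 36 members that averaged 10 CPM or more over both monocultures, 19 were at least 2-fold higher in MM.1S (52.8%, against 15.3% of all 8734 genes at this level) and 8 at least 2-fold higher in HS-5 (22.2%, against 38.1% of all genes). The counting interval of the ratio lay on the MM.1S side for 20 of these members (55.6%, against 28.7% of all genes) and on the HS-5 side for 13 (36.1%, against 59.5%). The median log2 ratio of HS-5 over MM.1S was -1.23 for these members and 0.56 for all genes. All log2 ratios carry a pseudocount of 1 CPM. The brackets after a level hold its exact 95% Poisson interval, and those after a ratio the exact 95% interval of the ratio of 2 counts without a pseudocount. These intervals cover counting error only, not the spread between cultures. In the following account, the 4 levels of a gene stand in the order MM.1S monoculture, MM.1S cells in coculture, HS-5 monoculture and HS-5 cells in coculture.

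**Figure D1:**
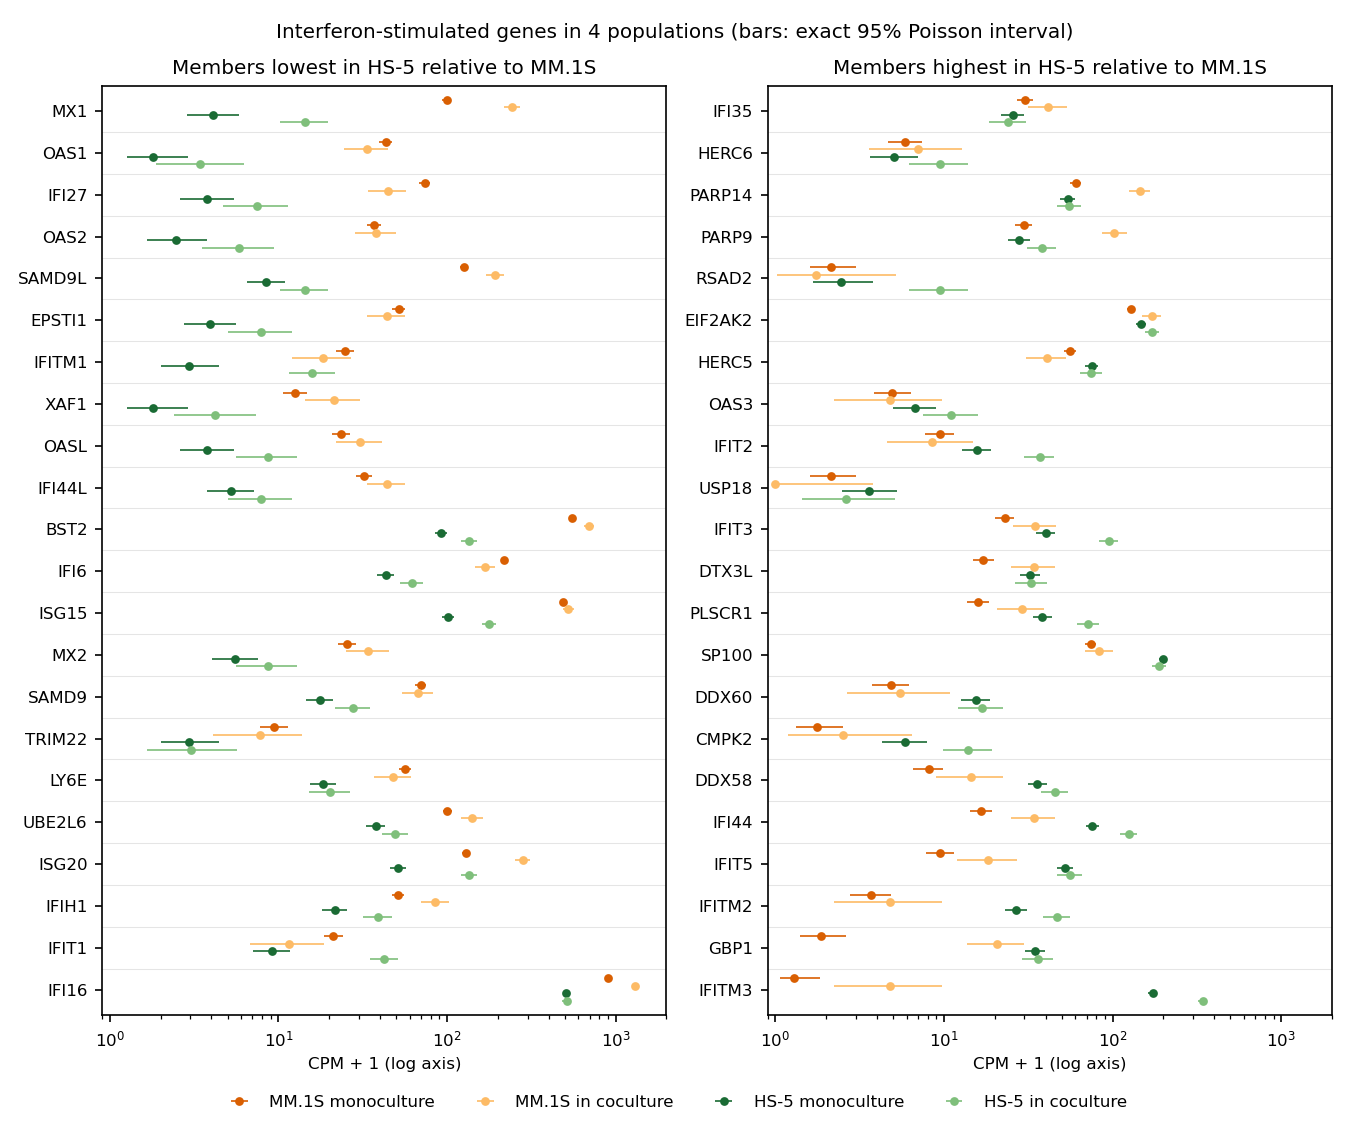
Levels of the 44 members in 4 populations, as CPM + 1 on a log axis, with exact 95% Poisson intervals as bars and the members ordered by their HS-5 over MM.1S monoculture ratio. The left panel runs from MX1 (98.7 CPM in MM.1S and 3.09 in HS-5 monoculture) down to IFI16, and the right panel ends with IFITM3 (0.288 and 172 CPM).

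Among the proteins that restrict virus entry and release, the lines differed in which were high. BST2 had 548, 694, 91.3 and 133 CPM, and this tetherin, which holds budding virions at the cell surface, was 6.0-fold higher in the MM.1S monoculture. LY6E, a membrane-anchored inhibitor of virus fusion, had 55.3, 46.6, 17.4 and 19.3 CPM. IFITM1, IFITM2 and IFITM3 hinder the fusion of virus envelopes with cell membranes and are near-identical neighbours on chromosome 11, so reads may have been split between them. IFITM1 had 23.9, 17.3, 1.95 and 14.9 CPM. IFITM2 had 2.68, 3.76, 25.9 and 45.5 CPM. IFITM3 had 0.288, 3.76, 172 and 340.3 CPM. IFITM1 was thus higher in MM.1S monoculture and both other genes were higher in HS-5, IFITM3 having only 3 UMIs in the 3947 MM.1S monoculture cells. In MM.1S cells in coculture, free RNA from HS-5 would account for 5.86 CPM of IFITM3, more than the 3.76 CPM measured there.

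The MX genes and OAS1, OAS2 and OASL stood on the MM.1S side, and OAS3 did not. MX1, a dynamin-like GTPase that traps viral nucleocapsids, had 98.7, 241, 3.09 and 13.3 CPM. MX2, its nuclear-pore paralogue, had 24.5, 33.1, 4.56 and 7.65 CPM. No HS-5 monoculture interval of either gene reached the MM.1S levels. OAS1, 1 of the synthetases whose product activates RNase L on double-stranded RNA, had 42.2, 32.3, 0.814 and 2.42 CPM. OAS2 had 35.8, 36.8, 1.47 and 4.83 CPM. OAS3 had 3.93, 3.76, 5.7 and 10.1 CPM. OAS1 and OAS2 were at or near the floor in HS-5 monoculture, where 3 UMIs were worth 0.488 CPM. OASL, which lacks the synthetase activity of its relatives, had 22.5, 29.3, 2.77 and 7.65 CPM. EIF2AK2, the kinase PKR that halts translation on double-stranded RNA, had 127, 169, 146 and 169.9 CPM. EIF2AK2 differed little between the monocultures (1.15-fold, 1.06 to 1.26).

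The IFIT genes, which encode a family of proteins some of which bind the 5′ ends of foreign RNA, lie together on chromosome 10 (positions 89283694 to 89421001, GRCh38, in the order IFIT2, IFIT3, IFIT1, IFIT5). IFIT1 had 20.1, 10.5, 8.14 and 41.5 CPM. IFIT2 had 8.43, 7.52, 14.7 and 35.8 CPM. IFIT3 had 21.9, 33.8, 39.1 and 93.8 CPM. Of these 3, the level in HS-5 cells in coculture was the highest of the 4 populations each time, with no overlap of the intervals. IFIT5 had 8.53, 17.3, 51.4 and 54.8 CPM. IFIT5 was 6.03-fold higher in HS-5 monoculture than in MM.1S (4.75 to 7.72), and its HS-5 intervals overlapped. Exons of IFIT2 overlap the opposite strand of LIPA, and the handling of strand in the counting is not given in the sources used here.

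The sensors were divided between the lines. IFIH1, the sensor MDA5 for long double-stranded RNA, had 50.1, 84.2, 20.5 and 37.9 CPM. DDX58, the sensor RIG-I for RNA with 5′ triphosphates, had 7.09, 13.5, 34.8 and 44.3 CPM. DDX60, a related helicase, had 3.83, 4.51, 14.5 and 15.7 CPM. The monoculture level of IFIH1 was higher in MM.1S, and those of both other helicases in HS-5. IFI16, a DNA sensor of the nucleus, had 902, 1306, 506 and 510.2 CPM. An IFI16 UMI was present in 36.4% of MM.1S monoculture cells and 22.7% of HS-5 monoculture cells after thinning to 500 UMIs (81.7% and 44.2% unthinned).

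The ISG15 pathway attaches ISG15 to proteins. ISG15, the modifier itself, had 489, 523, 100.1 and 177 CPM. UBE2L6, its conjugating enzyme, had 99.3, 139.8, 36.6 and 48.3 CPM. HERC5, the main human ligase, had 54.8, 39.8, 74.1 and 73.7 CPM. ISG15 and UBE2L6 were higher in MM.1S monoculture (4.88-fold and 2.71-fold), and HERC5 in HS-5 (1.35-fold, 1.19 to 1.53). HERC6 had 4.89, 6.01, 4.07 and 8.46 CPM. USP18, the enzyme that removes ISG15 and dampens receptor signalling, had 1.15, 0, 2.6 and 1.61 CPM. The USP18 levels in MM.1S lay below what 3 UMIs would give in the coculture population (2.26 CPM), so no coculture ratio is given for it there.

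PARP9, PARP14 and DTX3L act in ADP-ribosylation, and PARP9 and DTX3L bind each other. PARP9 had 28.7, 101, 27 and 37 CPM. PARP14 had 59.2, 144, 53.1 and 54.4 CPM. DTX3L had 16.1, 33.1, 31.4 and 31.8 CPM. For PARP9 and PARP14 the monoculture intervals of both lines overlapped, and all 3 genes were highest in MM.1S cells in coculture, although the intervals of DTX3L overlapped those of HS-5. PARP9 and DTX3L overlap on opposite strands, as do CMPK2 and RSAD2, so their counts may not be separate. CMPK2, a mitochondrial nucleotide kinase, had 0.767, 1.5, 4.88 and 12.9 CPM. RSAD2, the enzyme viperin, which makes a chain-terminating nucleotide, had 1.15, 0.752, 1.47 and 8.46 CPM. ISG20, an RNA exonuclease, had 129, 279.6, 49.98 and 134 CPM. ISG20 was 2.58-fold higher in the MM.1S monoculture and higher in coculture than in monoculture in each line.

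SAMD9 and SAMD9L encode large cytoplasmic proteins that restrict poxviruses. SAMD9 had 68.6, 66.2, 16.6 and 26.6 CPM. SAMD9L had 125, 192, 7.49 and 13.3 CPM. Both were higher in MM.1S, SAMD9L by 16.8-fold. IFI27 had 72.5, 43.6, 2.77 and 6.44 CPM. IFI6, like IFI27 a small membrane protein, had 215, 168, 42.2 and 60.8 CPM. Both were lower in MM.1S cells in coculture than in MM.1S monoculture, and higher in HS-5 cells in coculture than in HS-5 monoculture. IFI44 had 15.6, 33.1, 74.7 and 124 CPM. IFI44L, its neighbour on chromosome 1, had 31.2, 42.8, 4.23 and 6.85 CPM. The neighbours differed in opposite directions between the monocultures, IFI44 being 4.78-fold higher in HS-5 and IFI44L 7.36-fold higher in MM.1S. EPSTI1 had 50.6, 42.8, 2.93 and 6.85 CPM. XAF1, an antagonist of the apoptosis inhibitor XIAP, had 11.6, 20.3, 0.814 and 3.22 CPM. Both belonged to the 12 members seen at 10 CPM only in MM.1S. IFI35 had 29.4, 40.6, 24.6 and 23 CPM. TRIM22, a ubiquitin ligase, had 8.43, 6.77, 1.95 and 2.01 CPM. PLSCR1, a phospholipid scramblase, had 14.9, 27.8, 37.3 and 70.5 CPM. PLSCR1 was 2.51-fold higher in HS-5 monoculture, while IFI35 overlapped between the lines. GBP1, a guanylate-binding protein that is strongly induced by interferon gamma, had 0.863, 19.5, 33.7 and 35 CPM. SP100, a component of nuclear bodies, had 72.9, 81.9, 198 and 188 CPM. GBP1 had 9 UMIs in all MM.1S monoculture cells, 39.1-fold below HS-5 (20.2 to 86.6), and SP100 was 2.72-fold higher in HS-5.

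The second question was which members differ in coculture. Both coculture populations come from the same library, so a property of that library would touch both lines, and the comparisons are not independent of each other. In HS-5 cells IFIT1, IFIT2, IFIT3 and ISG20 stood at least 2-fold higher in coculture. Of the 28 members that averaged 10 CPM or more, 4 were at least 2-fold higher (14.3%, against 1.19% of all 8812 genes) and none was 2-fold lower (against 1.8% of all genes). The counting interval lay above 0 on the log2 scale for 18 of the 28 (64.3%, against 20.1% of all genes) and below 0 for none (against 23.2%). Their median log2 ratio was 0.48, and that of all genes -0.04.

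IFIT1 had 50 UMIs in the HS-5 monoculture and 103 in the smaller coculture population, a log2 ratio of 2.22 (5.1-fold, 3.6 to 7.29). Its level in HS-5 monoculture was below 10 CPM, so IFIT1 met the minimum mean level only through coculture. IFIT1 was detected in 0.398% of 3515 HS-5 monoculture cells and 1.71% of 1808 coculture cells at 500 UMIs (0.965% and 3.32% of all cells unthinned). The log2 ratios of IFIT2 and IFIT3 were 1.23 (2.45-fold, 1.8 to 3.32) and 1.24 (2.4-fold, 2.0 to 2.89). The share of cells went from 0.654% to 1.38% for IFIT2 (unthinned 1.42% and 2.66%) and from 1.31% to 3.98% for IFIT3 (unthinned 3.62% and 7.69%). Their neighbour IFIT5 did not share this difference, at 1.06-fold (0.864 to 1.31). ISG20 (chromosome 15, 88636153 to 88656483, plus strand) had a log2 ratio of 1.41 (2.68-fold, 2.29 to 3.14) and was detected in 1.39% and 6.47% of cells (unthinned 6.19% and 13.1%). Free RNA from MM.1S would account for 0.084 CPM of IFIT1, 0.060 of IFIT2, 0.27 of IFIT3 and 2.23 of ISG20 in HS-5 coculture cells, each well below the measured level.

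Below 2-fold, IFITM3 (0.98), PLSCR1 (0.90), IFIH1 (0.85), ISG15 (0.81), IFITM2 (0.79), SAMD9L (0.75), IFI44 (0.72) and SAMD9 (0.65) had the next highest log2 ratios in HS-5, all with intervals above 0. The share of cells with IFITM3 went from 5.52% to 14.4% at 500 UMIs (unthinned 16.9% and 27.9%). At the other end of the list, IFI16 (1.01-fold, 0.943 to 1.08), HERC5 (0.995-fold, 0.833 to 1.18) and SP100 (0.946-fold, 0.848 to 1.05) had ratios near 1 with narrow counting intervals. With 1 library per condition, those intervals do not bound a difference between cultures. The 16 members with a mean of 1 to 10 CPM in HS-5 were not part of these counts. Of them, 11 had an interval above 0 (68.8%, against 9.36% of all 9523 genes of this level) and none below (against 5.82%). Those above 0 included IFITM1 (1.95 to 14.9 CPM, 7.63-fold, 3.89 to 16.1), RSAD2 (1.47 to 8.46 CPM, 5.77-fold, 2.53 to 14.3) and MX1 (3.09 to 13.3 CPM, 4.3-fold, 2.37 to 8.0). For MX1, 1.93 of the 13.3 CPM would be free RNA from MM.1S. Over all 44 members and levels, 29 had an interval above 0 (65.9%, against 7.55% of all 38266 genes with a UMI in HS-5) and none below (against 7.01%), and 4 (HERC5, USP18, IFI35 and SP100) had a ratio below 1.

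**Figure D2:**
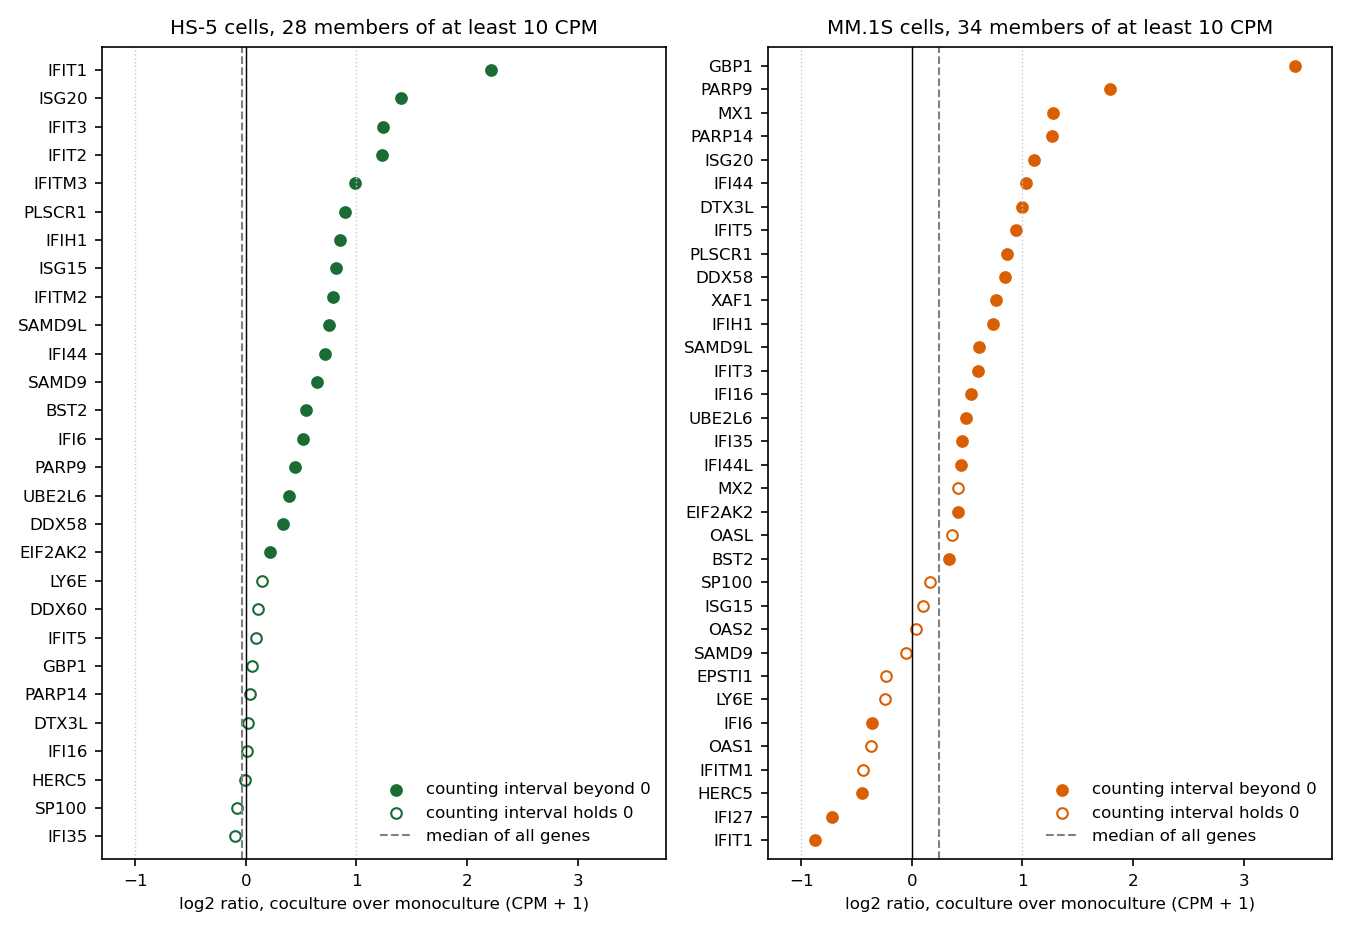
Log2 ratio of coculture to monoculture CPM, pseudocount 1, for members averaging 10 CPM or more, in HS-5 cells (left, 28 members) and MM.1S cells (right, 34 members). Filled points have a counting interval beyond 0, the dashed line is the median of all genes (-0.04 in HS-5 and 0.24 in MM.1S), and the dotted lines mark 2-fold. In HS-5 the filled points lie to the right of 0, while in MM.1S filled points lie on both sides.

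In MM.1S cells the picture was mixed. Of the 34 members that averaged 10 CPM or more, 6 were at least 2-fold higher in coculture (17.6%, against 19.1% of all 7837 genes), a share near that of all genes, and none was 2-fold lower (against 5.79%). The interval lay above 0 for 20 members (58.8%, against 40.4% of all genes) and below 0 for 4 (11.8%, against 19.2%). The median log2 ratio was 0.45 for the members and 0.24 for all genes.

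GBP1 (chromosome 1, 89052319 to 89065360, minus strand) had the highest ratio of the members in MM.1S, with 9 UMIs in monoculture and 26 in coculture, where fewer UMIs were counted in all. GBP1 lay below 10 CPM in MM.1S monoculture, so it met the minimum mean level only through its coculture level. Its log2 ratio was 3.46 (22.7-fold, 10.3 to 55), and free RNA from HS-5 would give 0.604 of the 19.5 CPM. GBP1 was detected in 0.0507% of 3947 monoculture cells and 0.917% of 1199 coculture cells at 500 UMIs (unthinned 0.228% and 1.4%). PARP9 followed with 1.79 (3.54-fold, 2.87 to 4.35), MX1 with 1.28 (2.44-fold, 2.15 to 2.77) and PARP14 with 1.26 (2.42-fold, 2.05 to 2.86). ISG20 was 2.17-fold (1.93 to 2.43) and IFI44 2.12-fold (1.48 to 2.97) higher. At 500 UMIs the share of cells went from 1.77% to 5.34% for PARP9, from 4.99% to 11.5% for MX1 and from 2.99% to 7.76% for PARP14. It went from 6.51% to 12.1% for ISG20 and from 0.937% to 1.83% for IFI44. Unthinned, where monoculture cells are deeper, the pairs were 6.21% and 6.98%, 18.5% and 15.2%, 12.1% and 10.6%, 21.8% and 16.9%, and 3.8% and 2.55%.

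The 4 members with an interval below 0 in MM.1S were IFIT1 (-0.87, 0.523-fold, 0.281 to 0.897), IFI27 (-0.72), HERC5 (-0.45) and IFI6 (-0.36). IFIT3, in contrast, was 1.54-fold (1.09 to 2.13) and IFIT2 0.891-fold (0.413 to 1.72), so the 3 IFIT genes that were higher in HS-5 cells did not form 1 group in MM.1S. For ISG15 the interval included 1 (1.07-fold, 0.988 to 1.16), and BST2 (1.27-fold, 1.18 to 1.36) and IFI16 (1.45-fold, 1.37 to 1.52) lay slightly above it.

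Because depth per cell differed in MM.1S, both comparisons were repeated in cells of 500 to 1500 UMIs, a range set after the data were seen. The restriction also changed which monoculture cells were compared, as it kept 821 of 3947 in MM.1S and 2435 of 3732 in HS-5. In HS-5 (2435 and 1297 cells, medians 806 and 878 UMIs), 11 of 28 members were at least 2-fold higher and none lower (against 6.74% and 5.38% of all genes), and the interval lay above 0 for 12 and below 0 for none (against 20.6% and 19.9%). These were ISG20 (2.43), IFIT1 (2.11), IFIT3 (1.78), IFITM2 (1.71), IFITM3 (1.63), ISG15 (1.29), IFIT2 (1.28), PLSCR1 (1.23), UBE2L6 (1.15), SAMD9 (1.12) and IFI44 (1.07), given as log2 ratios. The members' median was 0.38 and that of all genes -0.01, while SAMD9L, 0.75 over all cells, was -0.21. In MM.1S (821 and 1070 cells, medians 1232 and 756 UMIs, so depth was not fully matched), 1 of 34 members was at least 2-fold higher, PLSCR1 (1.19), against 21.6% of all genes. In the same cells 3 members were at least 2-fold lower (against 7.33%), IFI27 (-1.99), IFIT1 (-1.36) and IFI6 (-1.29). The interval lay above 0 for 9 members (against 32.2%) and below 0 for 7 (against 13.1%). The MM.1S members' median was then 0.11, below the 0.30 of all genes, and MX1 (0.74), PARP14 (0.74), ISG20 (0.52) and IFI44 (0.49) no longer reached 2-fold. PARP9 lay just under 2-fold, at 0.997. GBP1 had no UMI in the 821 monoculture cells and 17 in the 1070 coculture cells, and was outside these counts by its mean level. In these MM.1S monoculture cells IFI27 (147 CPM), IFI6 (408) and ISG15 (699) stood above their levels over all monoculture cells, and LY6E (47.7) below. In coculture cells IFI27 (36.4 CPM) and IFI6 (166) changed less. In HS-5 monoculture ISG20 (23.8 CPM) and IFITM3 (103) stood below their levels over all cells, and BST2 (113) above. How depth and the choice of cells each contributed was not tested.

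**Figure D3:**
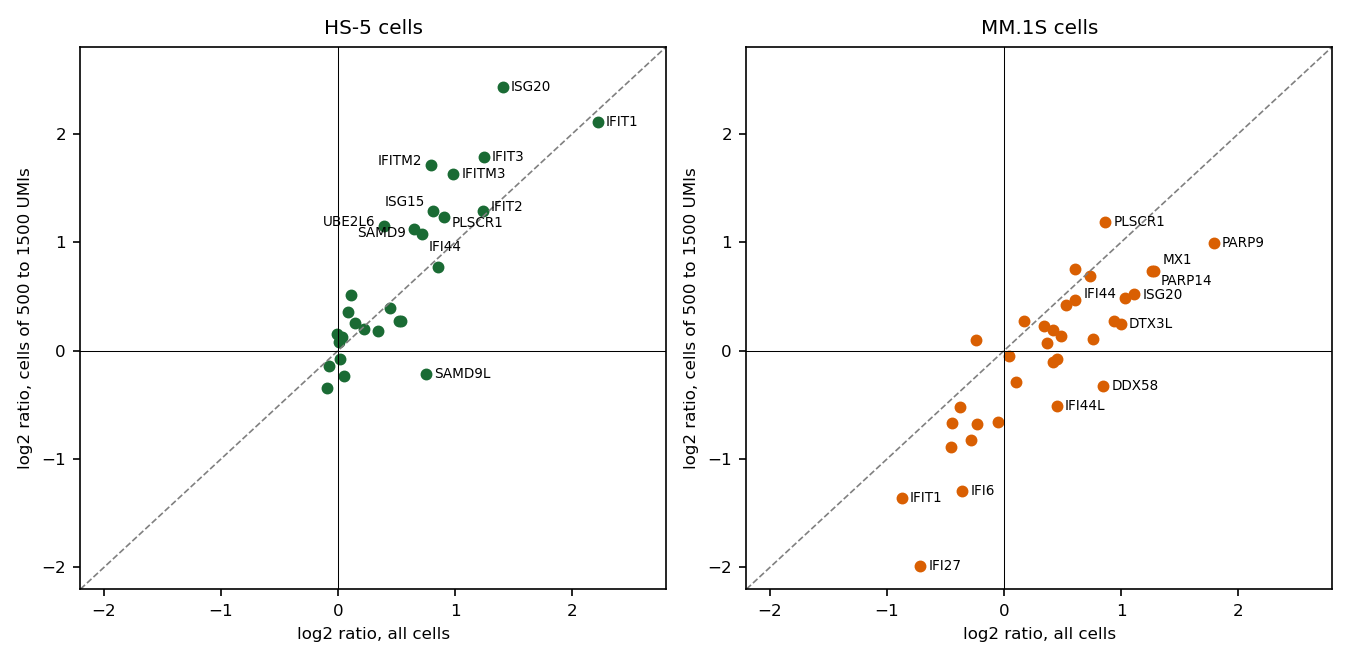
Log2 ratio of coculture over monoculture in cells of 500 to 1500 UMIs (vertical axis) against the ratio in all cells (horizontal axis), 1 point per member of at least 10 CPM in the restricted cells, for HS-5 (left) and MM.1S (right), with equality as a dashed line. Members of 2-fold or more on either axis, or more than 0.7 apart, are named. Most HS-5 points of high ratio lie on or above the line, and most MM.1S points lie below it.

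Transcript length moved with the ratios as well, in opposite directions. Among genes of at least 10 CPM, the shortest 25% had a median log2 ratio of -0.13 in MM.1S and 0.17 in HS-5, and the longest 25% 0.51 and -0.16. Of the 28 HS-5 members, 10 belonged to the shortest 25% and 8 to the longest 25%, and their median length was 3649 bases against 3726 for all genes. With this trend removed, the members' median in HS-5 was 0.37 and in MM.1S 0.40. Among members with a promoter sequence, the median HS-5 ratio was 0.59 for the 18 with an ISRE match and 0.34 for the 7 without, with ranges (-0.01 to 2.22 and -0.09 to 0.75) that overlapped. In MM.1S the medians were 0.45 (21 members) and 0.53 (9 members).

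The IFIT genes were then used to mark single cells. With every cell thinned to 500 UMIs, which left out no MM.1S monoculture cell, 448 MM.1S coculture cells, 217 HS-5 monoculture cells and 300 HS-5 coculture cells, an IFIT1, IFIT2 or IFIT3 UMI was present in 2.1% of MM.1S monoculture cells (83 of 3947, exact Clopper-Pearson 95% interval 1.68 to 2.6%). The share was 2.42% in MM.1S coculture cells (29 of 1199, 1.63 to 3.46%) and 2.08% in HS-5 monoculture cells (73 of 3515, 1.63 to 2.6%). In HS-5 coculture cells it was 5.97% (108 of 1808, 4.93 to 7.17%), above the intervals of the other 3 populations. The unthinned shares were 7.22%, 2.91%, 5.09% and 10.8% in the same order. Neither line is known to lack these genes, so no population serves as a blank. The 108 HS-5 coculture cells with an IFIT UMI held 1063 UMIs in the median, unthinned, and the 1700 cells without one 1074. Their share of line-specific UMIs from HS-5 was 83.3% or more.

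**Figure D4:**
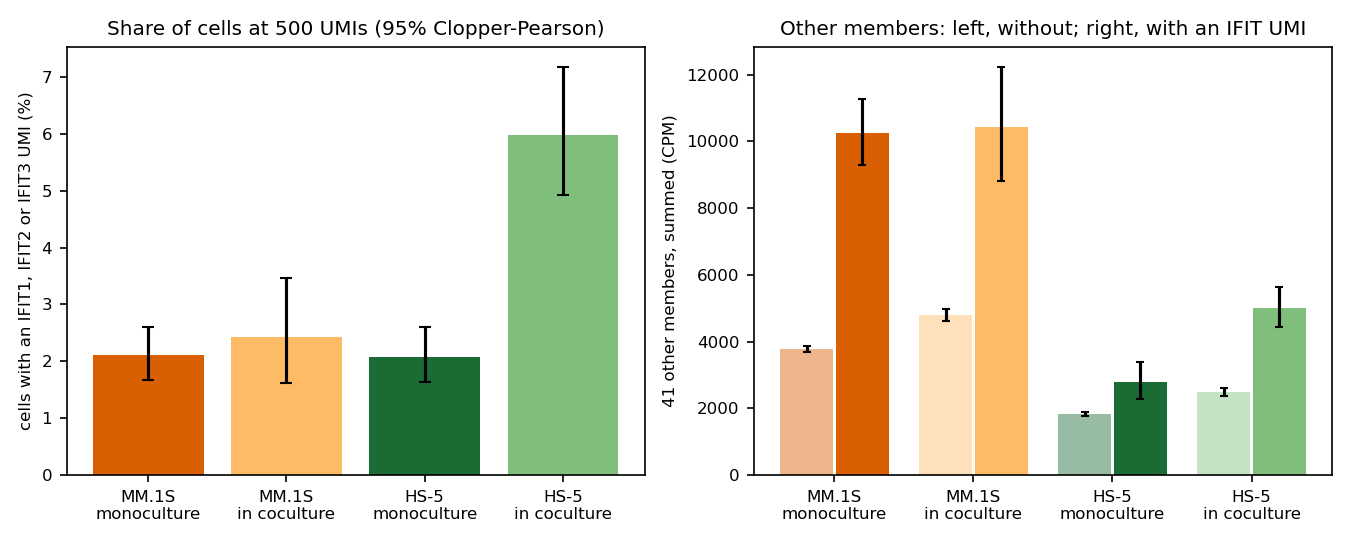
Left, share of cells with an IFIT1, IFIT2 or IFIT3 UMI after thinning to 500 UMIs, with exact 95% Clopper-Pearson intervals, in 4 populations. Right, summed CPM of the 41 other members in cells without (pale) and with (full colour) such a UMI, with exact 95% Poisson intervals. HS-5 cells in coculture have the highest share (5.97%), and in every population the other members are higher in the cells with an IFIT UMI.

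The other 41 members were counted in the same thinned cells. Their summed level was 10241 CPM in MM.1S monoculture cells with an IFIT UMI and 3764 CPM in those without, and 10414 and 4791 CPM in MM.1S coculture cells. In HS-5 it was 2795 and 1823 CPM in monoculture and 5000 and 2487 CPM in coculture. Among members of at least 10 CPM in these cells, the interval of the ratio lay above 0 for 14 of 29 in MM.1S monoculture (48.3%, against 1.99% of all genes) and 7 of 31 in MM.1S coculture cells (22.6%, against 1.72%). In HS-5 it lay above 0 for 3 of 24 in monoculture (12.5%, against 1.75%) and 10 of 30 in coculture cells (33.3%, against 2.27%). It lay below 0 for no member (against 0.226% to 0.729% of all genes). ISG15 was part of this in each population, with 2892 against 486 CPM, 2621 against 540.2 CPM, 493 against 80.8 CPM and 759 against 147 CPM. In HS-5 coculture cells, RSAD2 had 9 UMIs in the 108 cells with an IFIT UMI and 2 in the 1700 without, OASL 5 and 3, MX1 6 and 11, and IFI44 27 and 96. IFITM3 did not follow them, with 315 against 321 CPM. ISG20 had 204 against 138 CPM, on 11 UMIs in the cells with an IFIT UMI, and its log2 interval held 0 (-0.48 to 1.46). In MM.1S, ISG20 had 530 against 136 CPM in monoculture and 1034 against 277 CPM in coculture cells, both with intervals above 0. Among the HS-5 cells without an IFIT UMI, the summed level of the other members was 2487 CPM in coculture and 1823 CPM in monoculture. The median log2 ratio of these members was 0.22 (25 members, 0.32 over all thinned cells), with 19 of 25 above 0. No median or share of all genes was taken in the same cells, so these values have no background. Thinning also misses IFIT transcripts. Unthinned, an IFIT UMI was present in 5.09% of HS-5 monoculture cells and 10.8% of HS-5 coculture cells. Cells without an IFIT UMI after thinning are thus not known to lack IFIT transcripts.

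The number of different members detected per cell was counted as well, the IFIT genes included. At 500 UMIs, 3 or more different members were found in 22% of MM.1S monoculture cells (20.7 to 23.3%), 31.5% of MM.1S coculture cells (28.9 to 34.2%), 5.72% of HS-5 monoculture cells (4.97 to 6.54%) and 13.6% of HS-5 coculture cells (12.1 to 15.3%). No member was detected in 24.8%, 15%, 41.2% and 30.4% of these cells. The highest number in 1 cell was 13 in each MM.1S population, 9 in HS-5 monoculture and 14 in HS-5 coculture.

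**Figure D5:**
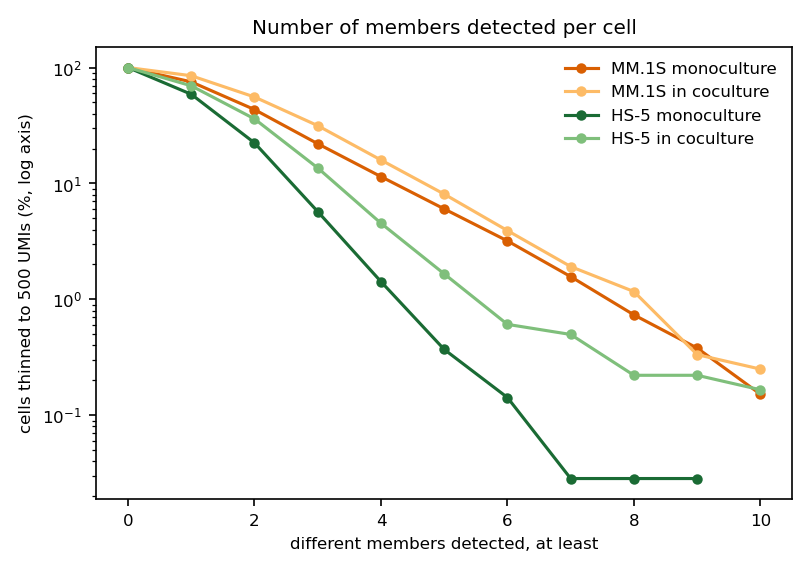
Share of cells, thinned to 500 UMIs, in which at least the given number of different members was detected, on a log axis, for 4 populations. The HS-5 coculture line lies above the HS-5 monoculture line from 1 member (69.6% and 58.8%) to 6 members (0.608% and 0.142%), and points at 7 or more rest on 9 HS-5 cells or fewer.

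A list of 69 further genes of the pathway, chosen by function with earlier results of these data known, was read in the same way. Among the ligands, IFNA1, IFNB1, IFNE, IFNK, IFNG, IFNL1 and IFNL3 had at most 2.44 CPM (IFNE in HS-5 monoculture), and in the coculture all 7 lay below the floor of 3 UMIs in both lines (2.26 CPM in MM.1S and 1.21 CPM in HS-5). Of the receptors, IFNAR1 had 87, 88.7, 168 and 199 CPM in the 4 populations, whereas its partner IFNAR2 had 31.9, 15, 2.93 and 5.64 CPM. IFNGR1 had 41.3, 49.6, 24.4 and 38.7 CPM and IFNGR2 21.2, 32.3, 55.2 and 76.5 CPM. The lambda receptor IFNLR1 had 1.82, 2.26, 3.42 and 2.82 CPM and its partner IL10RB 14, 18, 26.5 and 28.2 CPM. Both type I and type II receptor chains were thus detected in each line, IFNAR2 in HS-5 at a low level.

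In HS-5 coculture cells, 1 of the 38 pathway genes of at least 10 CPM was 2-fold higher (2.63%, against the 1.19% of all genes) and none lower (against 1.8%), so by this count the list was near the background. The counting interval lay above 0 for 15 of the 38 (39.5%, against 20.1% of all genes) and below 0 for 6 (15.8%, against 23.2%). Their median log2 ratio was 0.18, and that of all genes -0.04. The gene at least 2-fold higher was PSMB9, an immunoproteasome subunit, at 1.21 (2.35-fold, 1.93 to 2.85), followed by PSMB10 (0.80) and B2M (0.75). The 3 lowest were TAPBP (-0.62), MAVS (-0.43) and IRF7 (-0.42). STAT2, both a transducer and an interferon-stimulated gene, was higher over all HS-5 cells (1.67-fold, 1.04 to 2.64), while IRF1 was not (0.931-fold, 0.709 to 1.21). In HS-5 cells of 500 to 1500 UMIs the log2 ratio of STAT2 was 0.50, with an interval of both signs (-0.58 to 1.66). In MM.1S the log2 ratio of STAT2 was -0.62 over all cells (-1.47 to 0.05). It was -1.09 (-2.31 to -0.10) in MM.1S cells of 500 to 1500 UMIs.

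In MM.1S cells 17 of 46 pathway genes were at least 2-fold higher in coculture (37%, against the 19.1% of all genes) and 3 lower (6.52%, against 5.79%). The group of genes known as targets of interferon gamma and IRF1 held 11 of these 17, out of 21 measured, with a median log2 ratio of 1.03. Of the 21, 5 had a ratio below 1, and the interval lay below 0 for B2M (-0.62), TAPBP (-0.40) and HLA-C (-0.23). The 3 highest ratios of the whole list were those of CXCL9, a chemokine for T cells (4.88, 71.7-fold, 32.9 to 185), SOCS3, an inhibitor of STAT3 signalling (3.69), and the transcription factor IRF1 (3.59). APOL6 (3.04), GBP2 (2.92) and TAP1, a peptide transporter of antigen presentation (2.74), came next. The 3 lowest were IKBKE (-1.32), JAK1 (-1.14) and IFNAR2 (-1.04). In cells of 500 to 1500 UMIs 13 of 46 were at least 2-fold higher (28.3%, against the 21.6% of all genes) and 4 lower (8.7%, against 7.33%), both near the background, with IRF1, SOCS3, CXCL9, APOL6, GBP2 and TAP1 among the 13. The interferon gamma and IRF1 group then had 8 of 21 higher and 1 lower, TNFSF10 (-1.65), and a median of 0.80 against 0.30 for all genes. GBP1, the member with the highest ratio in MM.1S and known as an interferon gamma target, differed in the same direction as this group, while its ratio in HS-5 was 1.04 (0.80 to 1.34). SOCS3 and STAT3 (2.32) are known targets of signals other than interferon too, and whether any ligand was at work was not tested.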

How the data were processed

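The data are single-cell RNA-seq UMI counts from 3 Drop-seq libraries. The authors deposited raw counts per gene and cell barcode, not normalized, and used Seurat v2.4 for their own analyses. The submitters' processing notes name Cell Ranger 3.0.2, UMI-tools 1.0.0, STAR 2.5.3a, Subread featureCounts 1.6.4, SAMtools 1.9 and the build GRCh38, with no role or order. How barcodes were chosen and whether strand was used are not given in the sources used here.

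Barcodes under 200 genes were dropped. Line-specific UMIs assigned each coculture cell to MM.1S (HS-5 share up to 0.2) or to HS-5 (0.8 and above), and cells between were left out as possible doublets of both lines. Doublets of 1 line were not removed, and no doublet caller was run. UMIs were summed per population and scaled to counts per 1000000 (CPM). A level of 3 UMIs (0.288 CPM in MM.1S monoculture, 2.26 in MM.1S coculture, 0.488 in HS-5 monoculture and 1.21 in HS-5 coculture cells) was taken as the floor of what depth can show. Log2 ratios had a pseudocount of 1 CPM, and counts of genes used those averaging 10 CPM or more over both populations. Shares of cells were taken after thinning each cell to 500 UMIs. The UMIs of the opposite line's specific genes served to estimate free RNA. Intervals are exact at a level of 0.95 (Poisson, and Clopper-Pearson for shares and for ratios of counts) and cover counting error only. All members are named. Those at least 2-fold different at a mean of 10 CPM have CPM in the 4 populations, with shares of cells for the coculture differences, and of the pathway list the 3 highest and 3 lowest ratios per line, the ligands and the receptors are named. A few other genes of that list were named after their values were seen. IFNA2, IFNL2 and IRF9 were not analysed here. The members and lists were chosen with earlier results of these data known.

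Positions and transcript lengths come from GENCODE 29 and promoters from RefSeq. Python 3.11.15, numpy 2.4.6, scipy 1.17.1, pandas 2.3.3 and scanpy 1.11.5 were used. The steps were tested on simulated data. The alternatives were other limits on cells, scalings, pseudocounts, minimum levels, thinning depths and rules for a cell's line, subtraction of free RNA and removal of the length trend. Cells of 500 to 1500 UMIs, and the exclusion of barcodes shared between libraries, were added after the data were seen.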

Additional observations from a re-analysis of the deposited data

Results flagged for a closer look

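For 3 members the counting interval lay below 0 in MM.1S cells and above 0 in HS-5 cells. Each line had 1 library per condition, so the difference between the lines was not tested. IFIT1 had a log2 ratio of coculture over monoculture of -0.87 in MM.1S (20.1 to 10.5 CPM) and 2.22 in HS-5 (8.14 to 41.5 CPM). IFI27 had -0.72 in MM.1S (72.5 to 43.6 CPM) and 0.98 in HS-5 (2.77 to 6.44 CPM, below the 10 CPM minimum). IFI6 had -0.36 in MM.1S (215 to 168 CPM) and 0.52 in HS-5 (42.2 to 60.8 CPM). In cells of 500 to 1500 UMIs the MM.1S ratios were -1.36, -1.99 and -1.29 for IFIT1, IFI27 and IFI6, and the HS-5 ratios were 2.11, -0.29 and 0.27, so the opposite signs held there for IFIT1 and IFI6 and not for IFI27, whose HS-5 value rested on 7 and 3 UMIs.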

How the results depend on the processing

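No paired analysis was possible because each condition is 1 library. When a count, median or share was recomputed under each alternative, 118 values stayed within a set limit. For a share the limit was its interval, and for a count 1.5 times either way. For a median it was the medians of the members' interval ends, which are not an error of that median. Some alternatives kept a minority of a population. A split by clusters named from the line markers kept 647 of 1647 MM.1S coculture cells, and at least 500 genes kept 755. The limit of 200 to 2500 genes and under 5% mitochondrial UMIs kept 1113 of 3947 MM.1S monoculture cells. No median changed sign, but the MM.1S median relative to all genes went from 0.21 to -0.20 in cells of 500 to 1500 UMIs. The other 22 recomputed values follow, and their causes were not tested except where a setting by its construction leaves fewer or more genes. The 6 members at least 2-fold higher in MM.1S coculture cells became 3 in cells with at least 500 genes and 1 in cells of 500 to 1500 UMIs, and at exactly 1.5 times 9 with equal weight per cell and 4 with the median ratio of all genes set to 1 or a mean of at least 50 CPM. The count of members 2-fold lower in MM.1S, 0, became 1 in cells with at least 500 genes, with 200 to 2500 genes and under 5% mitochondrial UMIs, with the median ratio of all genes set to 1, with equal weight per cell, with no minimum level and with the length trend removed, and 3 in cells of 500 to 1500 UMIs, where the MM.1S median was 0.11 (0.105). The 4 members at least 2-fold higher in HS-5 became 8 with 200 to 2500 genes and under 5% mitochondrial UMIs, 9 with equal weight per cell, 11 with no minimum level or in cells of 500 to 1500 UMIs, and 2 at a mean of at least 50 CPM. That minimum also left 2 instead of 8 members higher in HS-5 monoculture and 7 instead of 19 higher in MM.1S monoculture. Of these alternatives, the share of all genes was taken only for cells of 500 to 1500 UMIs. There the share at least 2-fold higher went from 1.19% to 6.74% in HS-5 and from 19.1% to 21.6% in MM.1S. The share at least 2-fold lower in MM.1S went from 5.79% to 7.33%. The changed counts are thus not by themselves a result about the members. At 1000 UMIs per cell the share of cells with an IFIT1, IFIT2 or IFIT3 UMI was 3.7% in MM.1S monoculture, 3.33% in HS-5 monoculture and 9.99% in HS-5 coculture cells, and in cells of 500 to 1500 UMIs 1.6% and 7.17% in the HS-5 populations. The HS-5 median lay between 0.37 and 0.72 in all 15 alternatives that gave it, and no member was 2-fold lower in HS-5 in any of them. In HS-5 the log2 ratio of IFIT1 lay between 1.82 and 2.31 and that of ISG20 between 1.34 and 2.43, and in MM.1S that of GBP1 lay between 2.07 and 4.34, the last against no monoculture UMI. Depth limits MM.1S coculture cells most, where 3 UMIs are worth 2.26 CPM. With 1 library per condition, a difference between conditions cannot be told apart from one between library preparations.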
